A study of Bos taurus with 12 samples.

Results

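The interferon-stimulated antiviral genes MX1, MX2, ISG15, RSAD2 and IFI6 were followed in rumen papillae, the finger-like outgrowths of the forestomach lining through which acids of fermentation are taken up. They were found as every probe set of the Affymetrix bovine array whose annotation names one of these symbols and no other gene. All 5 genes were present, each with 1 probe set, among 9155 named genes on 24016 probe sets other than controls. Papillae came from the ventral sac of the rumen of 4 Holstein dairy cows. Each cow was sampled on a high forage diet, the control at week 0, and again at weeks 1 and 3 after grain was introduced (the grain challenge), giving 4 arrays per week and 12 in all. All groups therefore hold the same 4 animals, and diet and calendar week cannot be told apart. Ages of the cows are not given in the sources used here.

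Type I and type III interferons are cytokines that cells release when they sense viral nucleic acid. They act through receptors, the kinases JAK1 and TYK2 and a complex that holds STAT2 and IRF9, which switches on a large set of antiviral genes. ISG15 is a ubiquitin-like protein that is attached to other proteins, MX1 and MX2 are dynamin-like GTPases that block steps of viral replication, RSAD2 (viperin) makes a nucleotide that stops viral RNA synthesis, and IFI6 is a small membrane protein with antiviral activity in human cells. In cattle these genes are known as markers of infection and, in blood cells, of early pregnancy. MX1 and MX2 are neighbours in the cattle gene table.

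The deposited values are logarithms, taken here as log2, and every probe set has a median of 0 across the 12 arrays. They compare arrays for one gene and hold no level, so genes cannot be ranked against each other and the labelled tissue could not be checked against its markers. Probes for RNA added at hybridization, 18 probe sets, averaged 0.48 to 0.72 on the arrays of cow 1 at weeks 0 and 1 and of cow 2 at week 0, and -0.32 to 0.05 on the 9 that remain. In a tissue sample fewer cells of a type and less RNA per cell cannot be told apart.

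ISG15 separated 1 animal from the other 3. In cow 1 its log2 value was 6.50 at week 0, 4.53 at week 1 and 7.83 at week 3. Cow 2 had 0.84, -0.11 and 0.91 at the same weeks. Cow 3 had 0.11, -0.17 and -0.13, and cow 4 had -0.19, -0.13 and -0.25. All 3 arrays of cow 1 lay above all 9 arrays of the other cows, already on forage, and the groups of weeks overlapped throughout.

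Against the mean of the other 3 cows ISG15 of cow 1 was higher by 6.25 on the log2 scale at week 0, 4.66 at week 1 and 7.65 at week 3, which are 76.3-fold, 25.3-fold and 201-fold. The spread of those other cows was 0.53, 0.03 and 0.64 (SD, n = 3) at the 3 weeks. The gap between the lowest array of cow 1 and the highest array of any other cow was 3.61, second in size among the 24016 probe sets after a probe set that names no gene. For 474 probe sets, or 1.97%, the 3 arrays of cow 1 lay above the other 9, while such counts for cows 2, 3 and 4 were 127, 114 and 99. Week 3 of cow 1 held the highest ISG15 value and its hybridization controls averaged 0.05, within the range of the other arrays. On weeks 0 and 1 of cow 1 the controls averaged 0.49 and 0.48, among the high ones. A part of hybridization in the ISG15 values was not tested.

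The 4 cows differed in ISG15 beyond the spread left after the weekly means (limma moderated F test with week as a term, adjusted p = 0.00408). It was the only member called of 5, beside 430 probe sets or 1.79% of all. With cow 1 left out ISG15 was not called (limma F test, adjusted p = 0.530). With the 3 arrays of high hybridization controls left out its adjusted p was 0.0276, but that fit keeps only the week 3 array of cow 1, assumes that it varies like the others, and also calls RSAD2 (adjusted p = 0.00292), so it does not bear on the other weeks of that cow. Cows accounted for 93.3% of the variation of ISG15 over the 12 arrays and weeks for 2.60%. When the 40% of probe sets with the lowest SD were dropped, the medians of these shares over the remaining 14409 were 31.3% and 15.2%. Whatever went with the samples of an animal, infection and handling alike, cannot be told apart from the animal.

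**Figure D1:**
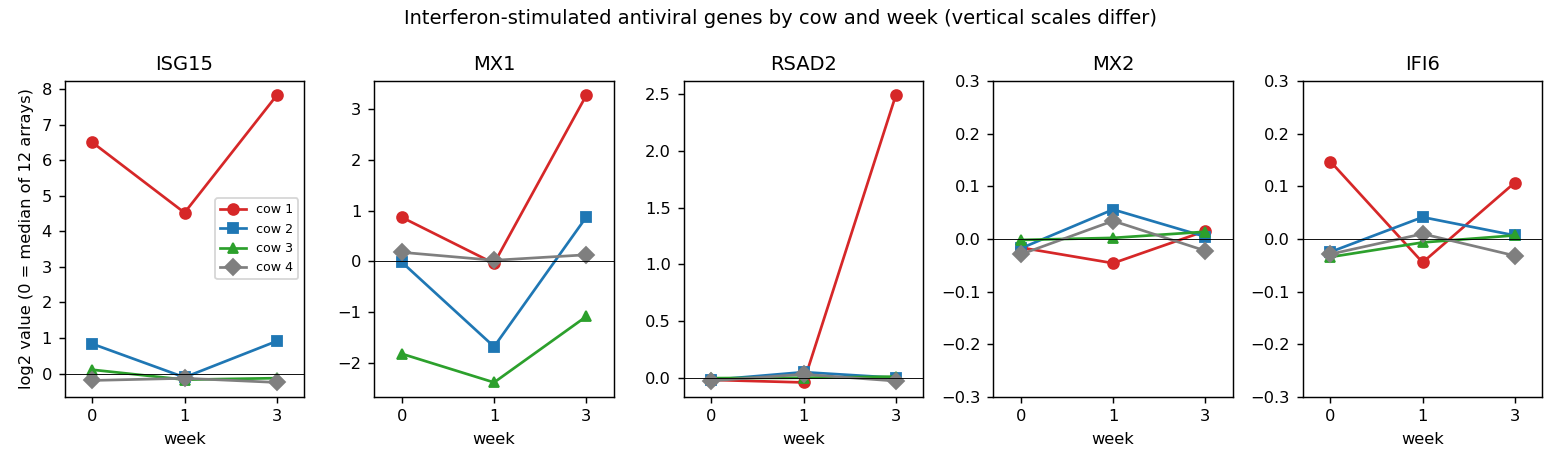
Log2 value of each of the 5 genes (vertical axis, 0 is the median of the 12 arrays, scales differ between panels) at weeks 0, 1 and 3, with a line for each cow. ISG15 of cow 1 lies at 4.53 to 7.83 against -0.25 to 0.91 in the other cows, RSAD2 stands out in week 3 of cow 1 alone, at 2.49, and MX2 stays between -0.05 and 0.06.

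Across weeks ISG15 of cow 1 was 3.94-fold lower at week 1 than on forage and 9.86-fold higher at week 3 than at week 1. In cow 2 the difference from week 0 to week 1 was -0.94 and from week 1 to week 3 it was 1.02, the same order of weeks at a far lower value. Cows 3 and 4 stayed within 0.28 on the log2 scale in every such step. Over the 4 cows the week 1 mean of 1.03 ± 2.33 (SD, n = 4) stood beside 1.81 ± 3.16 at week 0 and 2.09 ± 3.86 at week 3, so the spread between cows was larger than any weekly difference. That spread does not measure how differences within cows vary. With the cow as a block, week 3 minus week 1 was 1.06 ± 0.50 (SE of the model; limma, unadjusted p = 0.0670, adjusted p = 0.730).

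MX1, the GTPase of the pair that varied, was lowest at week 1 in every cow. Cow 1 had 0.87 on forage, -0.04 at week 1 and 3.27 at week 3. In cow 2 the values were -0.02, -1.69 and 0.87. Those of cow 3 were -1.83, -2.39 and -1.09, and those of cow 4 were 0.18, 0.02 and 0.13. Cow 1 at week 3 was the highest array and cow 3 held the lowest array of each week, while the weeks overlapped because the cows differed.

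From week 0 to week 1 MX1 differed by -0.91, -1.67, -0.56 and -0.16 in cows 1 to 4, a mean of -0.82 ± 0.94 (SE of the model, n = 4 cows; limma, adjusted p = 0.763). Week 3 against week 1 gave 3.32, 2.56, 1.30 and 0.11, or 9.97-fold in cow 1 and 1.08-fold in cow 4. The mean was 1.82 ± 0.94 or 3.53-fold, higher in 4 of 4 cows (limma, unadjusted p = 0.0812, adjusted p = 0.999). With the cow as a block its SE was 0.48 and the unadjusted p was 0.00542, but the adjusted p over all probe sets was 0.353. Week 3 against week 0 was 1.00 ± 0.94 and was higher in 3 of 4 cows (limma, adjusted p = 0.901).

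Values lower at week 1 than week 0 in all 4 cows were found for 3.39% of all probe sets, and values higher at week 3 than week 1 in all 4 for 5.12%. MX1 was among the 354 probe sets, or 1.47%, that were lowest at week 1 in every cow. Without cow 1 the differences of MX1 were -0.80 from week 0 to week 1 and 1.32 from week 1 to week 3. Cows accounted for 59.8% of its variation and weeks for 26.5%. Between cows it was not called (limma F test, unadjusted p = 0.00364, adjusted p = 0.113), where 11.7% of all probe sets had an unadjusted p under 0.05. Its adjusted p was 0.0153 where the 40% of probe sets with the lowest SD were left out, a setting with fewer probe sets tested.

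**Figure D2:**
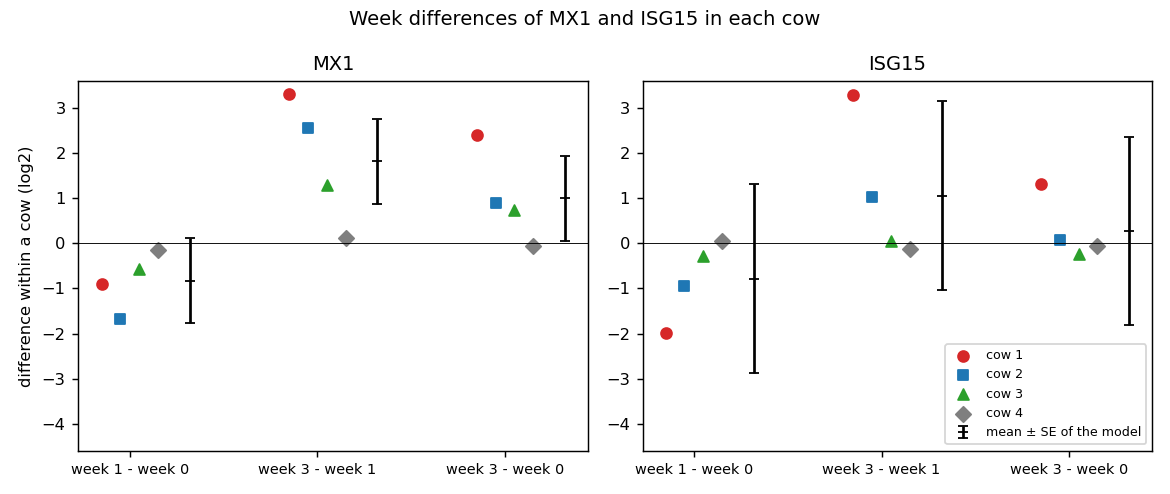
Difference between weeks within each cow (vertical axis, log2) for MX1 and ISG15, with the model's mean and SE over the 4 cows beside the points. The SE is that of the fit with no cow term, so it is not the spread of the points. MX1 lies below 0 for week 1 minus week 0 in every cow, from -1.67 to -0.16, and above 0 for week 3 minus week 1, from 0.11 to 3.32, while ISG15 of cows 3 and 4 stays near 0.

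RSAD2 was high on a single array. It was at 2.49 in week 3 of cow 1 and between -0.04 and 0.05 on the other 11 arrays, including weeks 0 and 1 of the same cow, at -0.02 and -0.04. In cow 1 week 3 was 5.68-fold above week 0 and 5.77-fold above week 1. The same differences in the other 3 cows lay between -0.06 and 0.02. The mean difference of 0.63 ± 0.47 (SE, n = 4 cows) from week 0 to week 3 rests on that array (limma, adjusted p = 0.901), and it was 0.01 without cow 1.

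MX2, the neighbour of MX1, did not share its pattern. Its values ran from -0.05 to 0.06 over the 12 arrays, a 1.07-fold range, against a 50.8-fold range for MX1. IFI6 ran from -0.04 to 0.15. Its 2 highest arrays were weeks 0 and 3 of cow 1, at 0.15 and 0.11, and week 1 of that cow was the lowest of all. The other 9 arrays of IFI6 lay between -0.03 and 0.04.

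These small values followed the array as a whole. The median of the 40% of probe sets with the lowest SD ran from -0.07 to 0.06 over the arrays. MX2 lay within 0.05 of it on 12 arrays, RSAD2 on 11 and IFI6 on 10, whereas MX1 did so on 3 and ISG15 on 0. Of all probe sets 37.0% lay that close on at least 10 arrays. Without cow 1, MX2 and RSAD2 had a Pearson correlation of 0.996 over 9 arrays, which share this array-wide level. Whether MX2, RSAD2 and IFI6 were detected on those arrays cannot be read from values with no level.

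**Figure D3:**
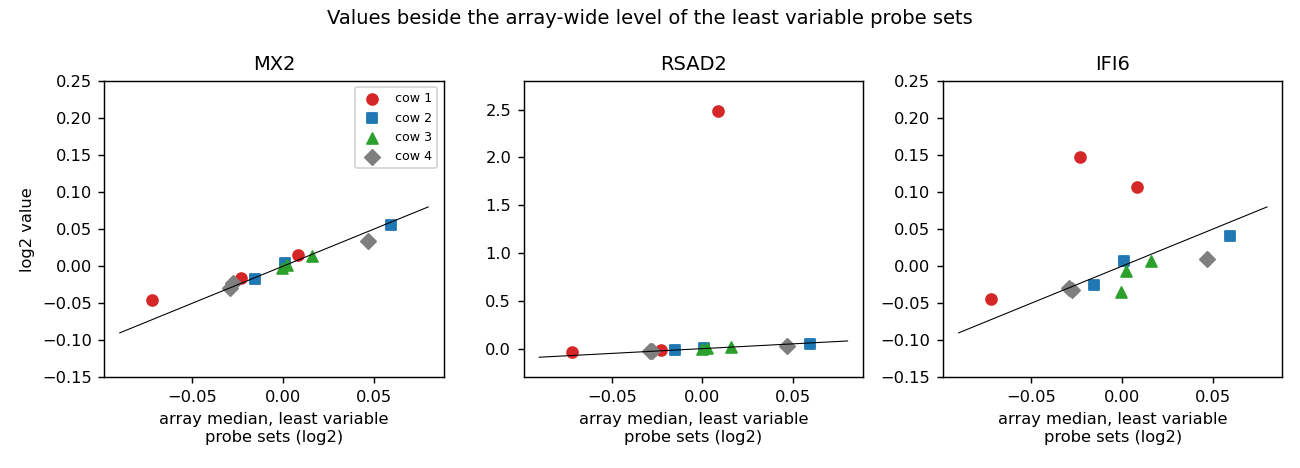
Log2 value of MX2, RSAD2 and IFI6 (vertical axis) against the median of the least variable probe sets on the same array (horizontal axis, log2), 12 arrays, marked by cow. The line marks equal values. MX2 follows it on all arrays, RSAD2 leaves it in week 3 of cow 1 and IFI6 in weeks 0 and 3 of cow 1.

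Over the week comparisons no member was called in week 1 against week 0, week 3 against week 0 or week 3 against week 1 (limma, 0 of 5 each). The shares called among all 24016 probe sets were 0%, 0% and 0%, with 5.15%, 3.88% and 4.88% at an unadjusted p under 0.05, a threshold that 0 of the 5 members passed. With the cow as a block 0.00833%, 0% and 0% of all probe sets were called and again none of the members, of which only MX1 in week 3 against week 1 had an unadjusted p under 0.05. The F test over the 3 weeks called 0% of probe sets, or 0.00416% with the block, and 5.01% had an unadjusted p under 0.05, MX1 standing at an adjusted p of 0.939, or 0.435 with the block. The standard error of ISG15 in this fit was 2.09 and with the cow as a block it was 0.50, so a weekly difference common to the cows could be seen only if it was large.

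Among themselves the members kept together only in part. ISG15 and MX1 had a Pearson correlation of 0.73 and a Spearman correlation of 0.37 over the 12 arrays, which share 4 animals. After each cow's mean was subtracted it was 0.85, and without cow 1 it was 0.45. ISG15 and RSAD2 had 0.66, or -0.17 without cow 1. These are descriptions of 12 arrays that are not independent.

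Of the interferon ligands, receptors and signal transducers 13 of 22 listed genes were measured. At week 3 against week 0 12 were higher and 1 lower, with a median difference of 0.11, and 0 were called in either direction. Over all named genes 64.5% were higher, with a median of 0.02. IFNAR1, a chain of the type I interferon receptor, differed by 0.89 ± 0.29 (SE, n = 4 cows), higher in 4 of 4 cows (limma, adjusted p = 0.901). Its partner chain IFNAR2 was at 0.17 ± 0.09, and IL10RB, which serves the type III receptor, was at 0.27 ± 0.14 in week 3 against week 1. These SEs and p-values, like those of the list genes below, come from the fit with no cow term. They take in the spread between cows and do not measure the spread of the differences within cows.

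IRF9, the DNA-binding part of the complex it forms with STAT2, had the same order of weeks as MX1 in each of the 4 cows. It had 0.98, 0.69 and 1.90 in cow 1 at weeks 0, 1 and 3, then 0.02, -0.64 and 0.49 in cow 2. Cow 3 had -0.02, -1.07 and 0.17, and cow 4 had -0.14, -0.42 and -0.37. Its difference of week 3 from week 1 was 0.91 ± 0.51, higher in 4 of 4 cows (limma, adjusted p = 0.999). All 3 arrays of cow 1 lay above the other 9, as they did for STAT2, at 0.42 to 0.78 against -0.56 to 0.22, a gene named after its values were seen. That held for 2 of the 13 measured genes of the list, against 2.51% of all named genes. Between cows neither IRF9 nor STAT2 was called (limma F test, adjusted p = 0.0519 for IRF9 and 0.0587 for STAT2). In this list 1 of the 13 genes was called, against 2.75% of all named genes. It was PTPN2 (limma F test, adjusted p = 0.0374), named after its values were seen, and there cow 1 did not lie above the other 9 arrays.

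Among genes that sense nucleic acids and induce interferon 13 of 24 were measured. At week 1 against week 0 4 were higher and 9 lower (median -0.13), and at week 3 against week 1 8 were higher and 5 lower (median 0.02), with 0 called in each direction. The latter median was 0.22 without cow 1 and 0.20 with the 3 arrays of high hybridization controls dropped. MYD88, an adaptor of Toll-like receptors, was at 0.32 ± 0.11 (SE, n = 4 cows) and IRF3, a factor that induces interferon, at 0.44 ± 0.18 in week 3 against week 1, each higher in 3 of 4 cows. TRAF6 and TRAF3, ubiquitin ligases of these pathways, were at -0.18 ± 0.09 and 0.04 ± 0.03 in week 1 against week 0. The RNA sensor genes TLR3 and DHX58 and the factor IRF5 had all 3 arrays of cow 1 above the other 9, chosen for naming after their values were seen. They are 3 of the 13 measured, against 2.51% of all named genes. Of these 3 genes DHX58 was called between cows (limma F test, adjusted p = 0.0286), with 0.55 to 1.37 in cow 1 and -1.19 to 0.26 in the others.

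The list of other interferon-stimulated antiviral genes held 54 genes, of which 33 were measured. At week 1 against week 0 16 were higher and 17 lower, with a median of -0.01, and without cow 1 22 were higher and 11 lower (median 0.05). At week 3 against week 1 26 were higher and 7 lower (median 0.18), where 40.8% of all named genes were higher with a median of -0.01. Week 3 against week 0 gave 26 and 7 as well (median 0.14). No gene of the list was called in any of these comparisons, in either direction. Without cow 1 the count at week 3 against week 1 was 19 higher and 14 lower, with a median of 0.14.

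By the rule for named genes LGALS3BP, a secreted glycoprotein, was at 0.55 ± 0.13 (SE, n = 4 cows) in week 3 against week 1, higher in 4 of 4 cows (limma, adjusted p = 0.575). IFITM1, which blocks viral entry, was at 0.34 ± 0.15 in that comparison. SHFL, an inhibitor of translation of viral RNA, was at 0.56 ± 0.21 in week 3 against week 0. HERC5, the ligase that attaches ISG15 in human cells, was at 0.23 ± 0.12, with 0.62 in week 3 of cow 3 as its highest array. None of the 4 was called.

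The pattern of ISG15, with cow 1 above the rest, was shared by 9 of these 33 genes, against 2.51% of all named genes. They were UBE2L6, UBA7, SAMD9, PARP9, PARP12, PARP14, DTX3L, TRIM5 and MOV10, picked after their values were seen. UBA7 and UBE2L6 are the activating and conjugating enzymes that attach ISG15 to proteins. UBA7 had 3.17, 1.05 and 3.85 in cow 1 at weeks 0, 1 and 3, and -0.90 to 0.65 in the other cows, a 6.90-fold difference of means. UBE2L6 had 0.58 to 1.14 in cow 1 and -0.67 to 0.11 in the others. UBA7, PARP9 and MOV10 were not called between cows (limma F test, adjusted p = 0.0916, 0.177 and 0.0748). The rest of these 9 genes were called.

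SAMD9, an antiviral factor, was at 4.92, 4.34 and 5.36 in cow 1. It was also high in cow 3, at 1.96 on forage and 3.38 at week 3, whereas the 3 arrays of cow 4 lay between -1.98 and -1.83. The ubiquitin ligase DTX3L, at 2.31, 2.17 and 3.69 in cow 1, and its partner PARP9, at 2.17, 0.59 and 2.55, also had their highest array at week 3 of cow 1. In the other cows DTX3L lay between -0.73 and 1.20 and PARP9 between -1.12 and 0.21.

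Between cows 7 of the 33 genes were called (limma F test), against 2.75% of all named genes. Such calls in the lists of cell markers are given below. GBP4, a guanylate-binding protein, had the smallest adjusted p (0.000517), and it was the only called gene of the list in which cow 1 did not lie above the other 9 arrays. It was at -3.44, -3.01 and -2.76 in cow 4 and between -1.08 and 1.07 in the other cows. SAMD9 had an adjusted p of 0.00437, TRIM5 0.00844 and DTX3L 0.0115. In contrast 8 of the 33, such as IFIT2, IFI27, OAS1X and IFI44L, lay within 0.05 of the array-wide level of the least variable probe sets on at least 10 arrays, as MX2 and IFI6 did, against 25.9% of all named genes. USP18, which removes ISG15 from proteins, was also among these 8 and left that level on 2 arrays. It was at 0.01, 1.73 and 3.10 in cow 1 at weeks 0, 1 and 3 and between -0.05 and 0.05 elsewhere. The genes of this paragraph were chosen for naming after their values were seen.

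**Figure D4:**
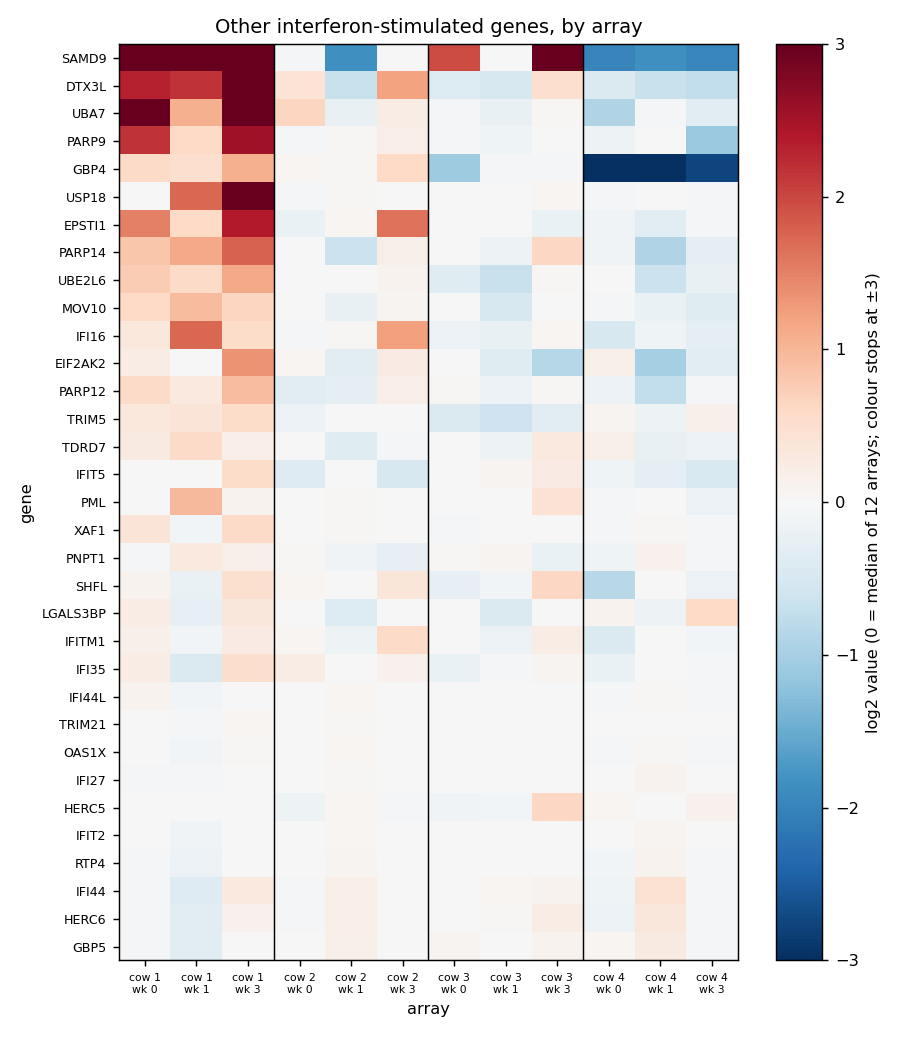
Log2 values (colour, 0 is the median of the 12 arrays and the colour stops at 3 either way) of the 33 measured other interferon-stimulated genes (rows) on the 12 arrays (columns, by cow and week). Rows are ordered by the mean of cow 1 minus that of the other cows, from SAMD9 at 5.13 to GBP5 at -0.19, and the genes at the top are high on the 3 arrays of cow 1.

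Interferon gamma acts through a separate receptor and raises antigen processing. Of 20 listed genes of that response 16 were measured, and at week 1 against week 0 4 were higher and 12 lower, with a median of -0.31, where 63.3% of all named genes were higher. Week 3 against week 1 gave 11 higher and 5 lower (median 0.28), and week 3 against week 0 gave 5 and 11 (median -0.08), with 0 called in each direction. Leaving out the 3 arrays with high hybridization controls gave 9 higher and 7 lower at week 1 against week 0 (median 0.04). At week 3 against week 0 it gave 14 higher and 2 lower (median 0.34). That setting compares unlike animals, since week 0 keeps cows 3 and 4 alone, week 1 lacks cow 1 and week 3 keeps all 4. With cow 1 left out at every week the counts were 6 and 10 (median -0.27) and 8 and 8 (median -0.03). TAP1, which carries peptides for antigen presentation, differed from week 0 to week 1 by -1.002 ± 0.58 (SE, n = 4 cows), lower in 4 of 4 cows (limma, adjusted p = 0.763). WARS1, a tRNA synthetase, was at -0.53 ± 0.30 and PSME2, a proteasome activator, at -0.50 ± 0.34, both lower in 4 of 4. ICAM1, an adhesion molecule, was at 0.61 ± 0.17 (limma, adjusted p = 0.712) and higher in 4 of 4. Between cows 7 of the 16 were called (limma F test), against 2.75% of all named genes. In 2 of the 16, TAP1 and SERPING1, all arrays of cow 1 lay above the other 9, against 2.51% of all named genes. TAP1 had an adjusted p of 0.0128 (limma F test), with cow 1 at 0.76 to 1.08 and the others at -1.97 to 0.34. The smallest adjusted p of the list was that of TAP2, the partner of TAP1, at 0.000139, and there cow 1 did not lie above all others. SERPING1 and TAP2 were named after their values were seen.

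Markers of monocytes, macrophages and dendritic cells are given beside these values. Their mean over 11 measured genes of 17 was 1.17, 0.29 and 0.82 in cow 1 at weeks 0, 1 and 3. Cow 2 had 0.46, -0.17 and 0.84. In cow 3 it was -0.13, -0.58 and 0.19, and in cow 4 it was -0.97, -0.77 and -0.62. The mean was lowest at week 1 in cows 1 to 3 and at week 0 in cow 4, where MX1 and IRF9 were lowest at week 1. By week the range over cows was -0.97 to 1.17, -0.77 to 0.29 and -0.62 to 0.84. At week 3 against week 1 9 of the 11 were higher and 2 lower (median 0.67). At week 1 against week 0 2 were higher and 9 lower (median -0.38), or 6 and 5 (median 0.05) without the 3 arrays of high hybridization controls. Week 3 against week 0 had 6 higher and 5 lower (median 0.05), or 10 and 1 (median 0.56) without those 3 arrays. Dropping them leaves cows 3 and 4 alone at week 0, so the weeks then hold unlike animals. With cow 1 left out at every week the counts were 3 and 8 (median -0.25) and 9 and 2 (median 0.36). In these comparisons 0 of the 11 were called in either direction.

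The mean of these markers was highest in cow 1 at weeks 0 and 1, at 1.17 and 0.29 against 0.46 and -0.17 in cow 2. At week 3 it was 0.82 in cow 1 and 0.84 in cow 2. ISG15 was highest in cow 1 at each of the 3 weeks. For none of the 11 markers, and for 0 of the 17 measured of 20 markers of T, NK and B cells, did the 3 arrays of cow 1 lie above the other 9. That held for 1 of the 8 measured markers of stratified epithelium and 1 of the 17 of fibroblasts, vessels and smooth muscle. Among all named genes the share was 2.51%, so a count of 0 in lists this short says little. The limma F test between cows called 2 of the 8 epithelial markers and 1 of the 11 of monocytes, macrophages and dendritic cells. It called 0 of the 17 of T, NK and B cells and 1 of the 17 of fibroblasts, vessels and smooth muscle. Of all named genes it called 2.75%, so calls between cows were not particular to the interferon lists. Markers of T, NK and B cells averaged -0.31 to 0.06 at week 0, -0.09 to 0.15 at week 1 and -0.08 to 0.26 at week 3. Markers of stratified epithelium, 8 measured of 17, averaged 0.00 to 0.28, -0.14 to 0.11 and -0.19 to -0.09 at the 3 weeks. Those of fibroblasts, vessels and smooth muscle, 17 of 17, averaged -0.17 to 0.19, -0.18 to 0.08 and 0.05 to 0.19. The part of these cells in the interferon genes' differences was not tested, and which markers were undetected cannot be read from values with no level.

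**Figure D5:**
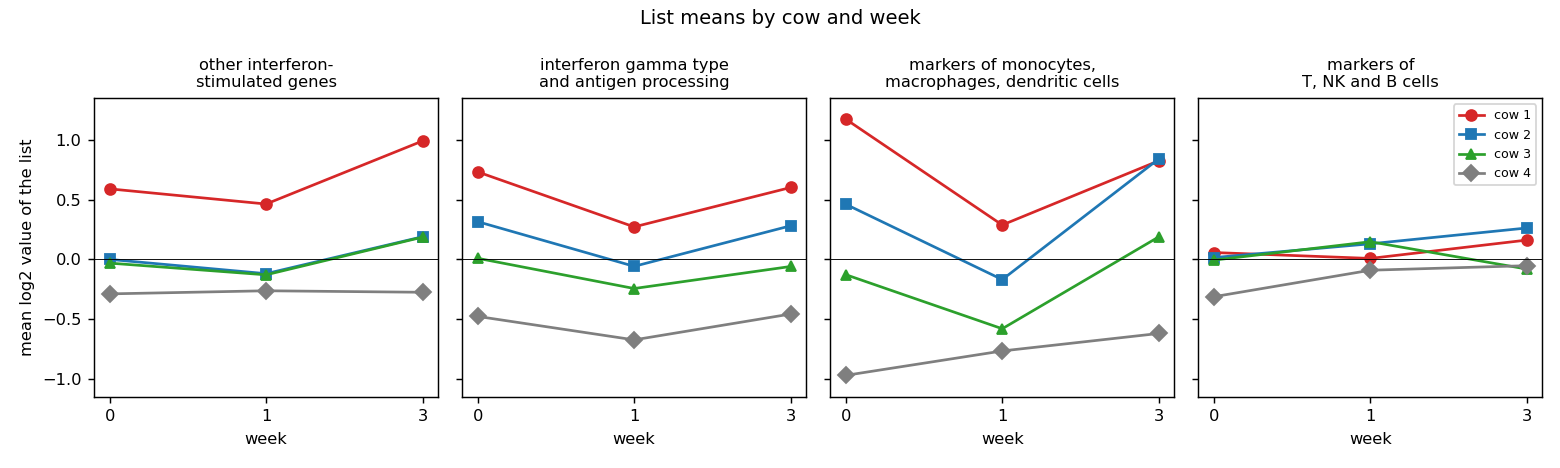
Mean log2 value of 4 gene lists (vertical axis, 33, 16, 11 and 17 genes) at weeks 0, 1 and 3, with a line for each cow. By the mean, cow 1 is highest in both interferon lists at every week, at 0.46 to 0.99 in the list of other interferon-stimulated genes, and cow 4 is lowest. The median of that list at week 1 was 0.02 in cow 1 and 0.03 in cow 2. The macrophage list is lowest at week 1 in cows 1 to 3, of which the week 0 and 1 arrays of cow 1 and the week 0 array of cow 2 had high hybridization controls, and at week 0 in cow 4.

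The 8 genes closest in pattern to the members were taken from 6595 named genes by their Pearson correlation with the mean of the 5 standardised members over the 12 arrays. All 8 were highest in week 3 of cow 1. MX1, ISG15 and RSAD2 were highest on that array too. Choosing genes by correlation with the members therefore favours this peak, which is not a separate result. XAF1, an interferon-stimulated gene tied to cell death, had a correlation of 0.95, and 0.93 after each cow's mean was subtracted. ADAMDEC1, a metalloproteinase known from human macrophages and dendritic cells, had 0.95, with 0.83, 0.13 and 2.25 in cow 1 and -0.18 to 0.27 elsewhere.

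RAB30, a small GTPase, was closest at 0.97, over values from -0.04 to 0.30 alone. ZNF543, HAUS5, TRAK2, HACD4 and LOC100298356 had correlations of 0.94, 0.92, 0.92, 0.91 and 0.91. LOC100298356 reached 5.51 in week 3 of cow 1 from 0.45 in week 1, and lay between -0.09 and 0.07 in the other cows. The likeness was largely that of cow 1. Without this cow the 8 correlations ran from 0.16 for ZNF543 to 0.90 for XAF1, and 1 of the 8, XAF1, was still among the 8 closest. In the other cows XAF1 lay between -0.04 and 0.04, at the array-wide level that MX2, RSAD2 and IFI6 also kept there. A likeness of XAF1 to the members beyond that shared level was not tested.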

How the data were processed

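RNA of rumen papillae from 4 cows at 3 weeks each was labelled from 10 µg per sample and hybridised to Affymetrix arrays, per the labels' protocols. Per the submitters' processing notes the deposited values, taken here as log2, were made with GCRMA, with no version or log base given. Base 2 was assumed: read as natural logs, the widest range of any probe set (11.2) would mean a 74399-fold span, more than a 16-bit scanner can record (65535). Each probe set had a median of 0 over the arrays, so no filter on level could be made. The number of arrays limits the precision. Columns were matched to cows and weeks through the sample titles, and the replicates are separate animals.

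All 24016 probe sets other than 112 controls were fitted in limma 3.58.1 (R 4.3.3; lmFit and eBayes, two-sided) with a mean per week, with Benjamini-Hochberg adjustment of p-values across the whole table. A call is an adjusted p under 0.05. A moderated F test with week as a term compared the cows. The cow was a block in an alternative fit, since the same animals were sampled each week and their deviations from the weekly means correlated at 0.32 to 0.69 between arrays of the same cow and at -0.44 to 0.06 between those of different cows. A gene with several probe sets was represented by that of the largest SD. Probe sets naming several genes, 86, and none, 10638, were tested and not named. Of 13292 probe sets with 1 gene, 13263 could be matched by gene ID to the ARS-UCD2.0 gene table, used for symbols and neighbours alone. The other genes named were up to 4 of each interferon list with the smallest unadjusted p over the week comparisons and the 8 nearest genes, and those named otherwise are marked as such. The members, and 8 gene lists with 191 entries of which 128 were measured, were chosen with earlier results of these data known, and no set test was run. The steps were tested on simulated data. Alternatives covered the block, normalization, SD filter, prior variance, the arrays fitted, and leaving out each array or cow. A mean over a gene's probe sets changed nothing for the members, which have 1 each.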

Additional observations from a re-analysis of the deposited data

Results flagged for a closer look

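In 8 of 30 groups of 4 cow values (5 genes, 3 weeks and 3 differences between weeks) 1 cow stood apart from the other 3 by Dixon's ratio of gap to range, and each time it was cow 1. For 4 values drawn from a normal distribution chance gives this in about 1 group in 20. Whether these values are so distributed was not tested, and the share over all probe sets was not computed. The 8 of 30 are therefore not shown to be an excess. The groups of a gene share arrays, so they are not separate events. ISG15 of cow 1 stood apart at week 0 (6.50), week 1 (4.53) and week 3 (7.83). RSAD2 of cow 1 did so at week 3 (2.49) and in its differences of week 3 from week 0 (2.51) and from week 1 (2.53), which rest on the same array. IFI6 of cow 1 stood apart at week 0 (0.15) and in its difference of week 1 from week 0 (-0.19), both small beside those of ISG15.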

How the results depend on the processing

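MX1 kept its direction in all 25 alternatives of each week comparison, and no member was called in any of them. The mean week differences of ISG15, RSAD2, MX2 and IFI6 have no settled sign, except those of MX2 and RSAD2 from week 0 to week 3 and of MX2 from week 0 to week 1. Those of MX2, 0.028 at week 1 and 0.019 at week 3, stood beside medians of 0.029 and 0.019 over all probe sets. That of RSAD2 rests on week 3 of cow 1. The kept signs are therefore not directions of these genes. Leaving out an array or a cow took ISG15 from -1.95 to 0.78 (week 1 against 0), -1.64 to 1.84 (week 3 against 0) and -0.85 to 2.23 (week 3 against 1), RSAD2 from -0.033 to 0.83 and MX2 from -0.032 to 0.0071 (week 3 against 1), and IFI6 from -0.042 to 0.044, -0.021 to 0.051 and -0.021 to 0.043. Quantile normalization turned ISG15 to -0.15 (week 3 against 0), RSAD2 to -0.00018 (week 1 against 0) and MX2 to 0.0066 (week 3 against 1). Centring each array turned MX2 to 0.00087 in that comparison and IFI6 to -0.0089 (week 3 against 0). Without the 3 arrays of high hybridization controls IFI6 turned to 0.046 (week 1 against 0). Adding the cow block gave 0.037, and at week 3 against 1 it gave -0.021 for IFI6 and -0.033 for RSAD2. Without cow 1 and with the replicate block, chosen after seeing the data, ISG15 was -0.072 (week 3 against 0), RSAD2 -0.033 (week 3 against 1), and IFI6 0.044 (week 1 against 0) and -0.021 (week 3 against 1). The cause of these turns was not tested.

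The 0 probe sets called at week 1 against week 0 became 2 with the cow as a block, 2 without the 40% of lowest SD, 5 without the 3 arrays of high hybridization controls, 1 without them and with the block, and 0 to 45 without an array or cow (45 without week 1 of cow 1). At week 3 against 0 there were 2 after quantile normalization, 6 without the 3 arrays, and 0 to 2 without an array or cow. At week 3 against 1 there were 12 without the 3 arrays and 0 to 38 without an array or cow. Over the 3 weeks together there were 1 with the block, 8 without the 3 arrays, and 0 to 28. The block changed no call of a member.

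Between cows the 430 calls became 259 with arrays centred, 734 without the 40% of lowest SD, 65 without the 3 arrays, and 101 (without cow 1) to 375 without an array or cow. Members called there numbered 1, against 2 without the 40% of lowest SD (ISG15 and MX1, adjusted p = 0.0153), 2 without the 3 arrays (ISG15 and RSAD2, adjusted p = 0.00292, with only week 3 left of cow 1), and 0 to 1 without an array or cow, 0 without cow 1. Of the 8 nearest genes 5 stayed among the 8 closest after quantile normalization, 5 with arrays centred, 4 without the 3 arrays, 4 with cow means subtracted, 2 by Spearman correlation and 5 with MX1, ISG15 and RSAD2 alone, a choice made after seeing the data.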
